A study of Mus musculus with 2 samples.

Results

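Hepatocyte secreted and fetal liver genes are a set of 33 genes, chosen by name, out of the 32285 genes listed in the matrices. Most encode proteins that hepatocytes release into blood: carriers (Alb, Ttr, Trf, Rbp4, Gc, Afp), apolipoproteins (Apoa1, Apoa2, Apob, Apoc1, Apoc2, Apoc3, Apoh), fibrinogen chains (Fga, Fgb, Fgg), and protease inhibitors and other plasma proteins (Serpina1a, Serpina1b, Serpina1c, Serpina1e, Serpinc1, Ambp, Itih4, Ahsg, Vtn, Mup3, Mup20). Afp, H19, Igf2 and Gpc3 are fetal genes that liver tumours can express again, and Fabp1, Cps1 and Hnf4a mark the hepatocyte itself. Each of the 33 symbols was found exactly 1 time in the features of both libraries.

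The data are 5′ droplet single-cell RNA sequencing (10x Genomics) of cells that carried CD45, a surface protein of leukocytes, when sorted from mouse hepatocellular carcinomas. Both groups had the genotype labelled MYC-ON. Mice were gavaged with the vehicle DMSO or with an agent called STK, for which the labels give no dose, time or target. There was 1 library per group, both with the same batch label, and the labels state neither the number, age and sex of the animals nor the promoter that drives MYC. Replicates are therefore lacking for every difference below, tests and p-values are left out, and each 95% interval covers counting error alone.

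Hepatocytes make the bulk of plasma protein, and a shared set of transcription factors (HNF1, HNF4, FOXA and C/EBP proteins) acts on the promoters of these genes. Alpha-fetoprotein (Afp) is the albumin-like carrier of fetal blood, its gene lies next to Alb, and it is silenced after birth and serves as a serum marker of liver cancer. H19, a non-coding RNA, and Igf2, a growth factor, are neighbouring imprinted genes that are active in fetal liver.

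Promoter windows were read for the members because several of them moved together among cells. A window, the 250 bases before the gene's start in RefSeq (GRCm38.p6), was available for 26 of the 33 members and for 27025 genes in all. The letters GTTAAT, the core of the HNF1 motif, occurred on either strand (reverse ATTAAC) in 13 of 26 member windows, against 7.49% of all genes. The 13 include Serpina1a, Serpina1b, Serpina1c and Serpina1e, which are related gene copies, so the member windows are not all independent. A C/EBP motif, TTGCNNAA (reverse TTNNGCAA), occurred in 11 of the 26 (42.3%) and in 10.8% of all genes. An HNF4 motif, CAAAGTC (reverse GACTTTG), and a FOXA motif, TGTTTAC (reverse GTAAACA), each occurred in 3 of the 26 (11.5%), against 4.33% and 3.54% of all genes. TATAAA (reverse TTTATA) occurred in 6 of the 26 (23.1%) and in 14.3% of all genes. Matches were counted for each motif by itself, whether or not they overlapped another motif, and a match is a run of letters, not a measured binding site.

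Windows are printed for Alb and Afp, the adult and fetal carrier genes that lie side by side, and for Serpina1b and Serpina1e, alpha-1-antitrypsin copies of which only the latter differed 1.5 times between libraries. They run 5′ to 3′ along the gene's own strand, with the GTTAAT core in capitals. They lie at chr5:90460620-90460869 (plus strand), chr5:90490464-90490713 (plus), chr12:103738190-103738439 (minus) and chr12:103956898-103957147 (minus).
Alb: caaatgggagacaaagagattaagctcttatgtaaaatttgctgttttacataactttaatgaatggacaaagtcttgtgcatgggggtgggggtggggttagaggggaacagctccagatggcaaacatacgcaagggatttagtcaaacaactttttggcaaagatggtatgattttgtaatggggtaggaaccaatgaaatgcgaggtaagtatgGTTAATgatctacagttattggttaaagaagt
Afp: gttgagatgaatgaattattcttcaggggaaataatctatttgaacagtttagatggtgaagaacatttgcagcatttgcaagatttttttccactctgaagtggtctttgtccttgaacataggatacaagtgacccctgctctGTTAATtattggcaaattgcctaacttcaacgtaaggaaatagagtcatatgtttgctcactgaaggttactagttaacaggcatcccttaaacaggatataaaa
Serpina1b: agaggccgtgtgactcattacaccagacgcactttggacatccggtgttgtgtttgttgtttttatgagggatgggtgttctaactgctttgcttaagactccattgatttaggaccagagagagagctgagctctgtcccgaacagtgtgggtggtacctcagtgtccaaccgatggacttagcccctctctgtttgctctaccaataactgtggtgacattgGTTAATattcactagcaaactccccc
Serpina1e: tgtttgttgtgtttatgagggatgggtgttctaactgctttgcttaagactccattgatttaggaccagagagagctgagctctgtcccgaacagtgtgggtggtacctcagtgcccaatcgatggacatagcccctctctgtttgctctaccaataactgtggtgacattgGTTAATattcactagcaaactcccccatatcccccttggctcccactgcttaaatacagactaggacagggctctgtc
The core begins 32 bases before the start in Alb, 105 in Afp, 26 in Serpina1b and 78 in Serpina1e. The Serpina1b and Serpina1e windows share an unbroken run of 69 bases that holds the core, so the differing distances go with where RefSeq places each start.

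Several members are neighbours in the genome (GRCm38, GENCODE vM21). Alb (ENSMUSG00000029368) spans chromosome 5 from 90460897 to 90476602 and Afp (ENSMUSG00000054932) from 90490737 to 90508907. Fgg, Fga and Fgb lie together on chromosome 3 from 83007724 to 83049863. Apoc2 and Apoc1 lie on chromosome 7 from 19671579 to 19692660, and H19 and Igf2 on the same chromosome from 142575529 to 142666816. The Serpina1 copies lie on chromosome 12 from 103728156 to 103958975, with Serpina1e (ENSMUSG00000072849) from 103946931 on the minus strand.

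The DMSO library held 11784 barcodes with 79322966 UMIs and the STK library 11672 with 81859811. Barcodes were kept from 500 UMIs and 250 genes upward and up to a mitochondrial share of 10%, which left 11152 and 10846, with medians of 4471.5 and 4930.5 UMIs. Between the libraries 203 barcodes were shared, of which 183 were kept in each. The sex of cells also differed: Xist, made in female cells, gave 61.1 and 175 CPM in the keratin-positive cells defined below, and the Y-linked Ddx3y 22.1 and 4.50 CPM (CPM are UMIs of a gene, summed over the cells, scaled to a fixed total).

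Hepatocyte or tumour cells were first taken as kept barcodes with at least 5000 UMIs in which Alb, Apoa1, Apoa2 and Ttr together made up at least 5% of UMIs. That gate held 11 DMSO cells (0.0986% of kept cells, 0.0492 to 0.176%) and 10 STK cells (0.0922%, 0.0442 to 0.169%). The lowest cells inside it had 5.29% and 5.04% of these 4 genes, and the highest outside 4.95% and 4.51%. The cut therefore fell in a continuous tail and not in a gap, as the plot of gate-gene shares shows.

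A second set of cells was chosen without any member, after the data had been seen: at least 5000 UMIs, at least 3 UMIs of the keratins Krt8 and Krt18, which hepatocytes and liver tumour cells make, and no UMI of Ptprc (the CD45 gene), Coro1a or Laptm5. These keratin cells numbered 991 in DMSO (8.89% of kept cells, 8.36 to 9.43%) and 704 in STK (6.49%, 6.03 to 6.97%), despite the CD45 sort. The share was 0.730 times as high with STK (0.662 to 0.805), and 0.423 and 0.436 times as high among female and among male cells. Whether these cells carried CD45 protein or passed the sort as impurities was not tested. They were deep, with medians of 26258 and 25374.5 UMIs, and their median share of the 4 gate genes was 0.828% and 0.731%. The 33 members together made up 3.21% and 3.18% of their UMIs, against 0.0980% and 0.0829% in leukocytes without keratin. By the members, the set as a whole matched a hepatocyte lineage, though some of its cells held few member UMIs, as described last. Genes of several other cell types were low, for leukocytes in part because the gate left out cells with leukocyte genes. The T cell genes Cd3d, Cd3e, Cd3g and Trac summed to 1.12 and 0.818 CPM. The 4 endothelial genes summed to 6.73 and 5.32 CPM (169 and 91 UMIs, with Cdh5 and Clec4g at 0 in both libraries). The stellate cell genes Dcn, Col1a1, Col3a1 and Lrat summed to 2 and 5 UMIs. The cholangiocyte genes Krt7, Krt19, Epcam and Sox9 summed to 84.9 and 110 CPM, most of it Epcam (49.3 and 80.9 CPM), and the monocyte list (Ly6c2, Ccr2, Plac8) to 116 and 94.2 CPM. The part of these other cell genes in the results was not tested.

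**Figure D1:**
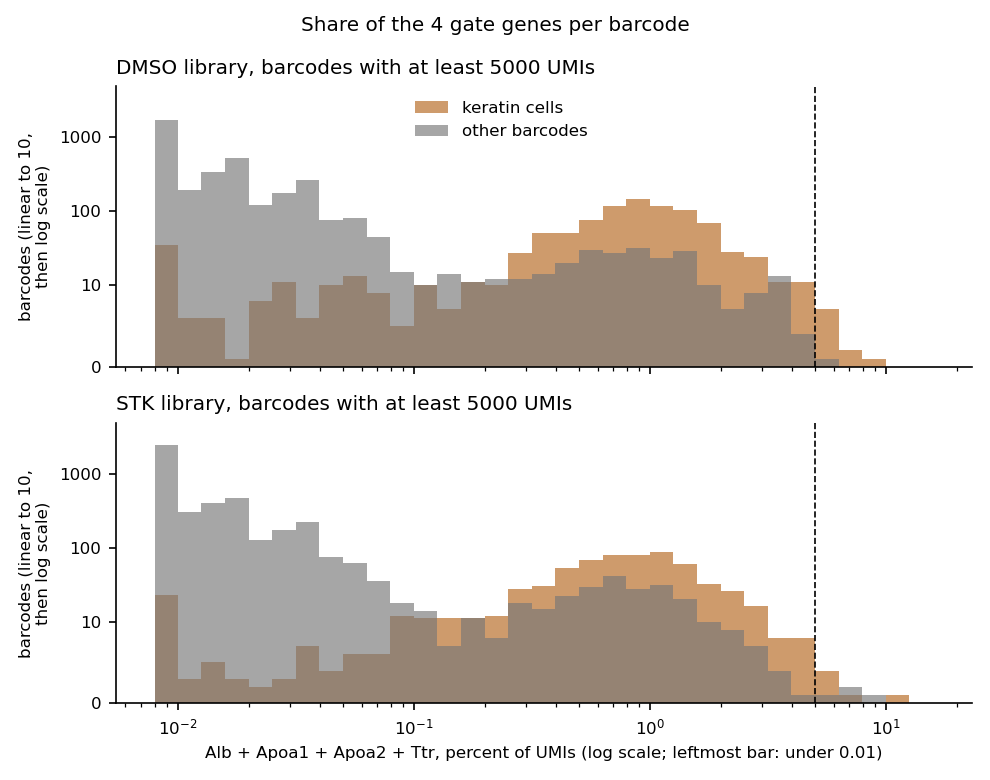
Number of barcodes with at least 5000 UMIs (vertical axis, linear to 10 and then logarithmic) by the percent of their UMIs from Alb, Apoa1, Apoa2 and Ttr (logarithmic axis), per library; brown bars are keratin cells, grey bars all other barcodes, and the dashed line marks 5%. Keratin cells centre near their medians of 0.828% and 0.731%, and only 11 DMSO and 10 STK barcodes of either kind lie right of the line.

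Levels and ratios of all keratin cells of a library mix both sexes, and female cells were 34.8% of the sexed keratin cells in DMSO and 87.9% in STK (sexed as described below). Where a member's ratio within a sex passed 1.5 times, the size used here to call a difference, it is given beside the pooled one or with the sexes below. The part of the mix in the pooled values was not tested.

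Carrier proteins were abundant in the keratin cells of both libraries. Ttr, the transthyretin carrier of thyroid hormone and retinol-binding protein, had 3640 CPM in DMSO (3616 to 3663) and 4092 in STK (4061 to 4122). Trf, transferrin, the iron carrier, had 2252 and 2210 CPM. Rbp4, the retinol carrier, had 1457 and 1352 CPM, and Gc, the vitamin D carrier, 826 and 899. None of these 4 pooled ratios reached 1.5 times in either direction. Within sexes Ttr did, in opposite directions (1.83 in female and 0.632 in male cells), and Rbp4 did in female cells (0.552, against 1.08 in male cells). Alb, serum albumin, gave 1091 and 940 CPM, or 0.861 times (0.844 to 0.878), with 0.950 in female and 0.465 in male cells. Albumin was detected in 86.2% and 84.9% of keratin cells, and in 73.2% and 70.2% once every cell was thinned to 5000 UMIs. T-gated leukocytes (at least 2 UMIs of Cd3d, Cd3e and Cd3g), which should lack it, gave 9.65% and 5.08% at the same thinned depth (819 and 965 cells deep enough, median 7772 and 8139 UMIs before thinning), so these shares were well above the level of stray RNA.

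Apolipoproteins differed little between the libraries when both sexes were pooled, but several were lower in STK within a sex. Apoa1, the main protein of high-density lipoprotein, had 2640 and 2293 CPM, and Apoa2, its partner, 2895 and 2431. Apoc2, the activator of lipoprotein lipase, had 2920 and 3105 CPM, and Apoc1 838 and 700. Apob, the scaffold of very-low-density lipoprotein, had 260 and 198 CPM, a ratio of 0.761 (0.730 to 0.794). Apoc3, an inhibitor of lipoprotein clearance, had 38.4 and 49.1 CPM (1.28, 1.17 to 1.41). All 7 apolipoprotein members stayed between 0.761 and 1.28 times in the pooled cells, Apoh among them at 317 and 320 CPM. Within sexes, Apoa2 had 0.559 times the DMSO level in female and 0.664 times in male cells, Apoc1 0.626 and 0.607, and Apob 0.583 and 0.451, past 1.5 times in both. Apoh passed it in female cells alone (0.632, against 0.797) and Apoa1 in male cells alone (0.535, against 0.782).

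The fetal genes were as abundant as the adult ones, in UMIs that are not corrected for gene length. Afp had 2617 and 2555 CPM, a ratio of 0.976 (0.964 to 0.988), and H19 3131 and 2838 (0.906, 0.896 to 0.917). Igf2 had 574 and 627 CPM (1.09, 1.07 to 1.12). Within sexes H19 was lower in female cells (0.591, against 0.731 in male cells) and Igf2 in male cells (0.644, against 0.900 in female cells), and Afp is described with the sexes below. Afp and H19 were found in nearly every keratin cell, Afp in 94.5% and 91.8% and H19 in 92.5% and 86.5% at 5000 UMIs, against 20.5% and 18.3%, and 24.5% and 19.4%, in T-gated cells. Gpc3, a cell-surface proteoglycan and tumour antigen, was the exception among the fetal members, with 172 and 84 UMIs (6.85 and 4.91 CPM; ratio 0.717, 0.545 to 0.936; 0.205 in female cells, not measured in male cells). Its UMIs came from 56 DMSO and 32 STK cells, and the top 1% of cells held 43.0% and 56.0% of them.

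Alpha-1-antitrypsin, the main inhibitor of neutrophil elastase in blood, is made from several gene copies in the mouse, and all 4 copies among the members had pooled ratios above 1, but ratios below 1 (0.557 to 0.781) within male cells. Serpina1e had 730 CPM in DMSO and 1145 in STK, a ratio of 1.57 (1.54 to 1.60), and was the member furthest above equal. Serpina1c had 85.8 and 120 CPM (1.40, 1.32 to 1.49), Serpina1a 133 and 168 (ratio 1.26), and Serpina1b 818 and 963 (ratio 1.18). Of their 50-base words, 73.3% in Serpina1c, 60.0% in Serpina1a, 35.6% in Serpina1e and 34.2% in Serpina1b also occur in another copy, Serpina1d included. How UMIs were divided between the copies is therefore uncertain. The words cover whole transcripts and not the 5′ ends alone, so they do not show for which copy it is least so.

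Fibrinogen and other plasma members were mostly close to equal in the pooled cells, and fewer were so within each sex. Fibrinogen is a complex of 3 chains. Fga had 723 and 812 CPM, Fgb 1010 and 1063, and Fgg 597 and 667, so that each was slightly higher in STK. Serpinc1, antithrombin, had 307 and 261 CPM, and Vtn, vitronectin, 461 and 414. Serpinc1 was lower in STK in both sexes (0.529 in female and 0.557 in male cells) and Vtn in male cells (0.594, against 0.931), whereas each fibrinogen chain stayed between 0.865 and 1.19 times in both. Ambp, the precursor of alpha-1-microglobulin and bikunin, had 610 and 636 CPM. Ahsg, fetuin-A, an inhibitor of calcification, had 428 and 315 CPM (0.734, 0.711 to 0.759), with 0.323 in female and 1.01 in male cells. Itih4, a plasma inter-alpha-inhibitor heavy chain, was low, with 171 UMIs in DMSO and 56 in STK (6.81 and 3.27 CPM), a ratio of 0.481 (0.349 to 0.653), with 0.195 in female cells and too few UMIs in male cells. The major urinary proteins, pheromone carriers that male livers secrete in large amounts, were nearly silent. Mup3 had no UMI among 991 and 704 cells, which allows a share of cells with a UMI of up to 0.303% and 0.426%, and Mup20 15 and 2 UMIs.

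Hepatocyte markers did not move as one. Hnf4a, the nuclear receptor that maintains hepatocyte identity, had 73.4 and 78.1 CPM (1.07, 0.992 to 1.14), and Fabp1, the liver fatty acid binding protein, 566 and 530, with 0.512 in female and 0.658 in male cells. Cps1, the first enzyme of the urea cycle, had 43.2 and 28.2 CPM, a ratio of 0.652 (0.585 to 0.727), with 0.154 in female cells. Male cells had too few UMIs to be called (20 and 26), and their 1.75 and 15.9 CPM ran the other way. Unsexed cells did so too, at 9.73 and 30.6 CPM. Of the 1084 Cps1 UMIs in DMSO, 982 came from female cells. The share of keratin cells with a Cps1 UMI did not follow the pooled order, with 7.16% and 8.81% at 5000 UMIs. No order was read from that share.

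In all, 31 of the 33 members reached 50 UMIs in at least 1 library, and so were measured. Serpina1e alone was at least 1.5 times higher in STK, where 3.27% of the 10413 genes measured were. Cps1, whose share of cells with a UMI ran the other way, and Itih4, with few UMIs, were at least 1.5 times lower, 6.45% of the members, as were 2.55% of genes. The median log2 ratio was -0.03 over the members and -0.02 over all genes. In the 5% gate, 26 members were measured: Serpina1e was 2.24 times higher (2.08 to 2.43; 5.71% of 735 genes were called higher), none was called lower (7.21% of genes), and the median was 0.06, both with and without the 4 gate genes, whose summed level the gate fixed. Of these cells 1 in DMSO and 7 in STK were sexed female, none male. The 7 members not measured there were Apoc3, Gpc3, Mup3, Mup20, Hnf4a, Cps1 and Itih4.

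**Figure D2:**
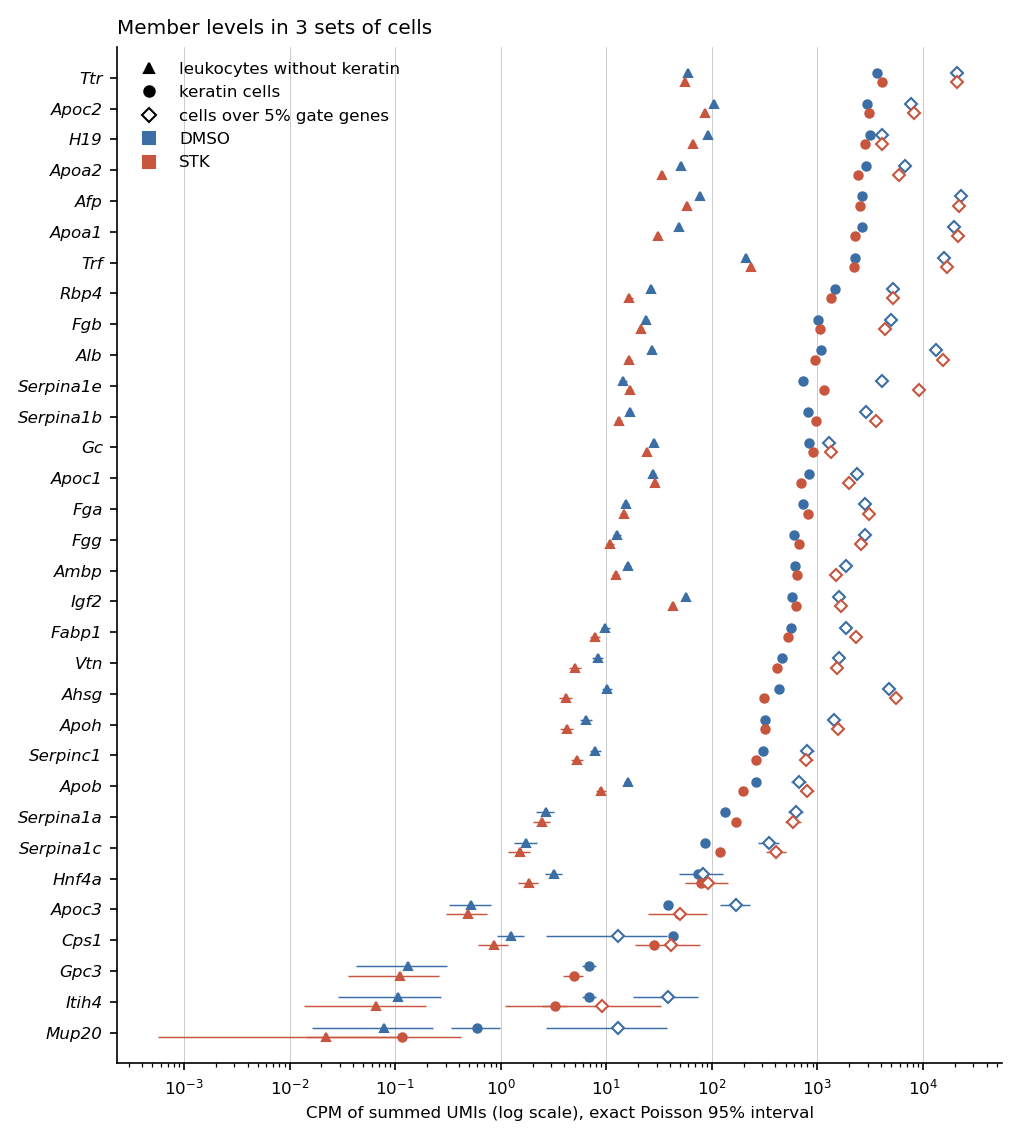
Level of each member in CPM of summed UMIs (logarithmic axis) with exact Poisson 95% intervals, for leukocytes without keratin (triangles), keratin cells (circles) and cells over 5% gate genes (diamonds), DMSO in blue and STK in red; sets with no UMI of a gene show no symbol and Mup3 is left out. The libraries nearly coincide in keratin cells except at Serpina1e, Cps1, Itih4 and the nearly silent Mup20, and Trf, Igf2 and Apob sit nearer to their keratin-cell level in leukocytes than the other abundant members do.

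The keratin cells ranged widely in how much of the programme they held, and the members differed in how steeply they ranged. The cells were grouped by their share of the 4 gate genes, so Alb, Apoa1, Apoa2 and Ttr rise across the groups by construction and the comparison is a description of the others. From cells under 0.5% (274 DMSO and 231 STK cells) to cells at 2 to 5% (73 and 57), Ahsg differed 53.5 times in DMSO and 27.6 times in STK. Afp differed 10.2 and 9.67 times, Trf 8.76 and 8.50 times, and Serpina1e 10.0 and 19.8 times. At the shallow end were Rbp4 (3.47 and 2.30 times), Hnf4a (2.26 and 3.85 times) and Gc (1.51 and 1.61 times). H19 and Igf2 also differed less than Afp, by 4.34 and 3.92 times and by 4.51 and 5.03 times. Median depth in these groups was 18614.5 and 17924 UMIs at the low end and 24741 and 26349 at 2 to 5%.

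In the few cells over 5%, the fetal genes differed in how far they lay above their level in all keratin cells. Afp reached 22705 CPM in DMSO and 21994 in STK, and Trf 15692 and 16815. H19 stood at 4135 and 4127 CPM there, against 3131 and 2838 in all keratin cells. Igf2 had 1611 and 1672 CPM, against 574 and 627. Gpc3 had no UMI in either library, which allows up to 15.9 and 16.8 CPM. Those limits lie above its level in all keratin cells (6.85 and 4.91 CPM), so no difference was read from them. Hnf4a was at 81.8 and 91.1 CPM, close to its level in all keratin cells. Hnf4a rested there on 19 and 20 UMIs. Of these cells 10 of 11 and 6 of 10 were also keratin cells, and genes of other cells were present: the leukocyte genes Ptprc, Coro1a and Laptm5 summed to 73.2 and 91.1 CPM, the macrophage list to 129 and 9.11, the pDC list (plasmacytoid dendritic cells) to 0 and 91.1, the B cell list to 0 and 54.7 and the monocyte list to 116 and 214. The part of these genes was not tested.

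Across cells thinned to 5000 UMIs, every pair among the 27 members detected in at least 20% of cells had a positive Spearman correlation, which is given as a description because cells of a library share their source, and cells that differ in one abundant gene differ in the room left for others. Over 351 pairs the median rho was 0.398 in DMSO and 0.420 in STK, with ranges of 0.0715 to 0.715 and 0.0219 to 0.765. The fibrinogen chains gave 0.615 to 0.649 in DMSO and 0.630 to 0.664 in STK, and Alb with Afp 0.670 and 0.663. Trf went with Alb at 0.695 and 0.698. H19 went with its neighbour Igf2 at 0.579 and 0.590 and with Apoa2 at 0.715 and 0.576, whereas Afp with H19 gave 0.222 and 0.273. The highest rho of Afp were with Trf (0.695 and 0.663), Alb and Ttr (0.647 and 0.586) in both libraries. Those of H19 were with Apoa2, Apoc1 (0.625) and Apoc2 (0.612) in DMSO, and with Igf2, Apoc2 (0.581) and Apoa2 in STK. With cells of both sexes pooled, the fetal genes thus did not form a single block. Female cells had 0.601 times the male level of Afp and 2.57 times that of H19 in DMSO. In STK they had 1.73 and 2.07 times. The part of the mix of sexes in these rho was not tested. Hnf4a had the lowest median rho (0.136 and 0.192), but it was detected in only 28.3% and 29.8% of thinned cells. Gc (0.224 and 0.265) and Rbp4 (0.326 and 0.196) were also low although each was found in at least 94.5% of cells.

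**Figure D3:**
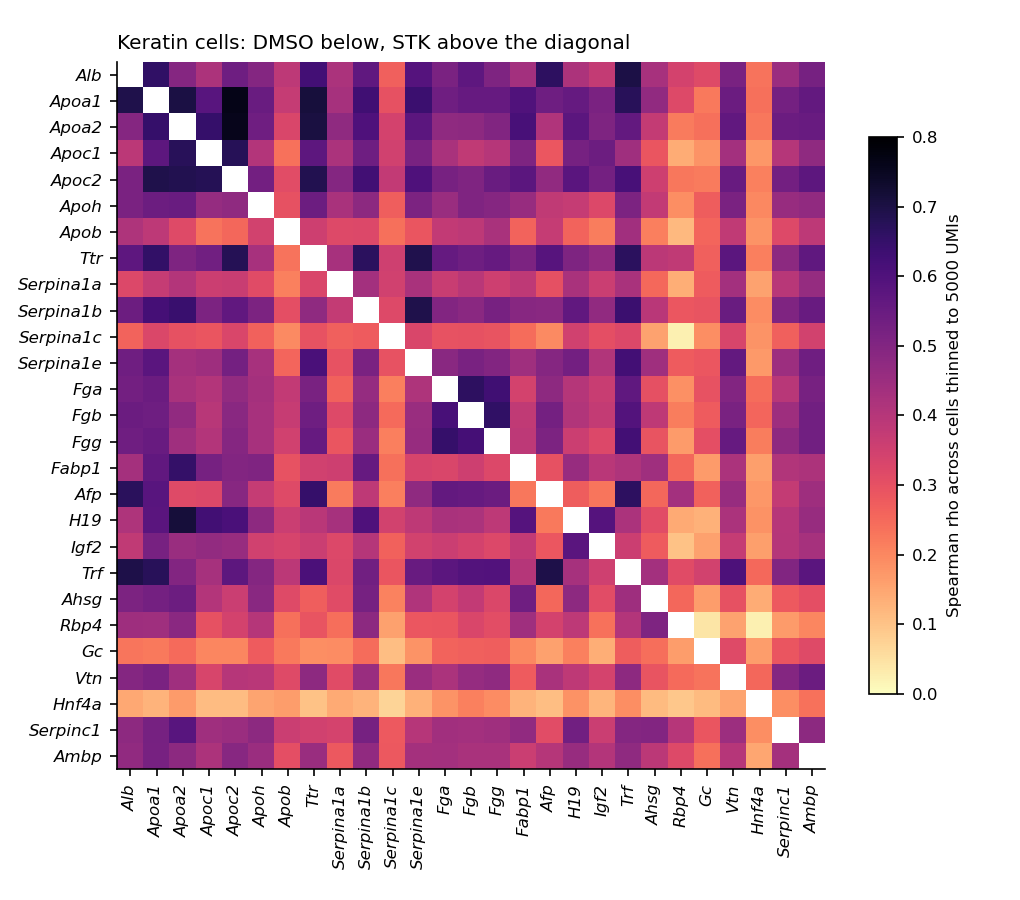
Spearman rho for each pair of the 27 members detected in at least 20% of keratin cells thinned to 5000 UMIs, DMSO below the diagonal and STK above it, with darker squares for higher rho. The fibrinogen block, the pairs of Alb, Afp and Trf, and the pale bands of Hnf4a and Gc recur on both sides.

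Female and male keratin cells of the same library differed widely in several members. Cells were sexed where Xist and 4 genes of the Y chromosome (Ddx3y, Eif2s3y, Kdm5d, Uty) gave at least 2 UMIs of which at least 90% were of 1 kind. In DMSO this gave 204 female and 382 male keratin cells, with 397 unsexed, and in STK 406 and 56, with 238 unsexed. In DMSO, Ahsg had 1184 CPM in female and 177 in male cells, H19 5859 and 2284, Fabp1 1170 and 391, and Cps1 189 and 1.75. In STK the same genes had 382 and 179, 3463 and 1670, 599 and 257, and 29.1 and 15.9 CPM. Each was higher in female cells in both libraries. Sex, animal and tumour cannot be told apart here, since cells of a sex may come from 1 animal.

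The libraries also compared differently within each sex. Ttr had 2555 CPM in DMSO and 4671 in STK female cells, a ratio of 1.83 (1.79 to 1.86), but 3825 and 2419 in male cells (0.632, 0.612 to 0.653). Afp had 1634 and 2936 CPM in female cells (1.80, 1.75 to 1.84) and 2717 and 1699 in male cells (0.625, 0.601 to 0.650). Serpina1e had 761 and 1463 CPM in female cells (1.92, 1.86 to 1.99) and 688 and 420 in male cells (0.610, 0.564 to 0.660). These 3 members went past 1.5 times in opposite directions, and the difference between the sexes was not tested. Unsexed cells gave STK values below DMSO for all of them: 4086 and 3390 CPM for Ttr, 3133 and 2000 for Afp, and 777 and 683 for Serpina1e.

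Apoa2, Apoc1, Apob, Fabp1 and Serpinc1, with the ratios given above, were at least 1.5 times lower in STK in both sexes. For each of them the pooled ratio lay above that of either sex: 0.840, 0.835, 0.761, 0.937 and 0.851, in the same order. For Igf2 and Serpina1b, among others, the pooled ratio was above 1 (1.09 and 1.18) while both sexes were below it. Igf2 had 0.900 in female and 0.644 in male cells, and Serpina1b 0.842 and 0.756. Of the 31 members measured in female cells, 3 were called higher and 12 lower, against 12.3% and 5.36% of 9216 genes. Of 28 measured in male cells none was called higher and 13 lower, against 11.8% and 9.28% of 9278 genes, with only 56 STK cells behind them. The median log2 ratio of the members was -0.15 in female and -0.53 in male cells, beside 0.12 and 0.01 over all genes.

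Other hepatocyte genes, in lists chosen with earlier results known, passed 1.5 times more often than genes in general in keratin cells. Of 86 measured, 9 were higher (10.5%, against 3.27% of all genes) and 12 lower (14.0%, against 2.55%), in the pooled cells with their unequal mix of sexes. Ratios within a sex are not given for these list genes, so whether their calls hold in each sex is not known. Of 18 measured genes of complement and coagulation, none was called either way; C3, the central complement protein, had 262 and 327 CPM (1.25) and Kng1, kininogen, 396 and 333 (0.841). Of 8 acute phase genes, 3 were higher and 1 lower: Hamp, the iron hormone hepcidin, had 31.5 and 65.3 CPM (2.07), and the low-level Lcn2, Cp and Saa4, named after their values were seen, had ratios of 2.27, 1.74 and 0.644. Of 6 other apolipoproteins, Clu, clusterin, had 19.1 and 54.6 CPM (2.86), while Apoc4, in the Apoc2 cluster, had 106 and 58.8 (0.553) and Apoa4, named after its values were seen, 0.343. Apoe, Apom and Mttp were within 1.5 times. Of 14 transcription factors, Cebpb, a factor of the acute phase, was higher (165 and 251 CPM, 1.52), and Foxa1 (0.514) and Nr1i3 (0.394), both under 5 CPM and named after their values were seen, were lower. Cebpa had 60.5 and 76.2 CPM (1.26) and Foxa3 55.3 and 72.5 (1.31). Of 11 genes of the urea cycle and amino acid breakdown, 3 were lower: Arg1 (120 and 76.9 CPM, 0.643), Otc (0.456) and Hal (0.650), the last 2 named after their values were seen. Of 8 serpins and carriers only Serpina6, the corticosteroid carrier, was called, lower at 69.0 and 45.6 CPM (0.660). Of 13 fetal, progenitor and tumour genes, Epcam, an epithelial adhesion protein, had 49.3 and 80.9 CPM (1.64) and Dlk1, an imprinted fetal gene, 112 and 58.4 (0.524). Named after their values were seen, Spp1 had 1 and 343 UMIs and Igf2bp1 a ratio of 0.264. In how many cells the Spp1 UMIs lay is not given here, so a rise across cells cannot be told from a few cells. Of the 4 measured cytochrome and bile acid genes, Cyp3a11 (1.81) and Abcb11 (0.619), both named after their values were seen, were called. The male-biased and female-biased lists had 2 measured genes each and none called. In the 5% gate, 25 genes of these lists were measured. There 3 were higher and 3 lower (12% each, against 5.71% and 7.21% of 735 genes). Clu ran the other way there, with 220 and 86.6 CPM (0.394, 0.220 to 0.679) on 51 and 19 UMIs. Of 9 measured complement and coagulation genes, C3 (1.54, 1.28 to 1.86) and Plg (2.16, 1.61 to 2.92) were higher in that gate.

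Member RNA was also present in leukocytes. Leukocytes were kept barcodes with a Ptprc UMI and under 1% gate genes, 7924 in DMSO and 8498 in STK, and the members made up 0.194% and 0.209% of their UMIs, a ratio of 1.08 (1.07 to 1.09). This set held 139 and 221 barcodes with at least 3 keratin UMIs. In leukocytes with no Krt8 or Krt18 UMI and at least 2 UMIs of Ptprc, Coro1a and Laptm5, chosen after the data had been seen, the direction turned: 0.0980% of UMIs in 7661 DMSO cells and 0.0829% in 7811 STK cells, 0.846 times (0.834 to 0.858). Mean member UMIs per cell were then 4.86 and 4.79, while the STK cells were deeper, with medians of 4328 and 4692 UMIs. Trf, described by class below, gave 21.5% of these member UMIs in DMSO and 28.6% in STK, and its own ratio was 1.12 (1.09 to 1.16). In the first set 2 of 29 measured members were called higher in STK, Apoc3 and Serpina1e (4.21% of genes), and 2 lower, Apob and Ahsg (3.99%). Without keratin, none of 27 was called higher (4.17% of genes) and 9 were lower (4.86%): Alb, Apoa1, Apoa2, Apoh, Apob, Ahsg, Rbp4, Vtn and Hnf4a. Ahsg had the lowest ratio, 0.407 (0.340 to 0.486), with 387 and 187 UMIs, and Alb 0.600 (0.545 to 0.660), with 1033 and 736.

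Most members lay at a few percent of their keratin-cell level in leukocytes, and the percent differed between leukocyte classes. Over 31 members, the level in leukocytes without keratin had a median of 2.12% of the level in keratin cells in DMSO and 1.81% in STK, and 24 and 25 members lay between 1 and 3%. Trf, Apoc1 and Apoc2 apart, the members gave 3.10 UMIs per T-gated cell, 2.87 per NK-gated, 3.36 per pDC-gated, 3.18 per macrophage-gated and 3.30 per monocyte-gated cell in DMSO, and 2.71, 2.59, 2.89, 3.04 and 2.70 in STK. Median depths of these classes ran from 3730 to 6100.5 UMIs in DMSO and from 3553.5 to 7866.5 in STK, and neutrophil-gated cells, at 1339 and 1432 UMIs, gave 2.65 and 2.68. B-gated cells, at 1829 and 2071.5 UMIs, gave 2.74 and 2.42. Member UMIs per barcode thus differed less between classes than depth did. Relative to the keratin cells, the members' median level ran from 1.83% in macrophage-gated to 4.91% in neutrophil-gated cells in DMSO, and from 1.24% to 4.06% in STK. Classes are cuts on marker UMIs per cell, not types, and 13.98% and 10.91% of these leukocytes met none.

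Trf, Apoc1 and Apoc2 stood apart by class. Trf had 398 CPM in macrophage-gated and 378 in monocyte-gated DMSO cells, against 73.9 in T-gated cells; in STK it had 530, 413 and 108 CPM. Apoc1 reached 60.6 CPM in DMSO and 124 in STK macrophage-gated cells, and 18.6 and 17.4 in T-gated cells. Apoc2 was highest in monocyte-gated cells, at 178 and 150 CPM, against 51.7 and 55.4 in T-gated cells. Trf and Apoc2 were higher in both myeloid classes, and Apoc1 in macrophage-gated cells, by more than the counting interval in both libraries. In monocyte-gated cells Apoc1 had 1.69 times its T-gated level in DMSO, but 1.09 times in STK. Alb was not higher, with 21.7 and 25.0 CPM in macrophage-gated and monocyte-gated DMSO cells and 26.6 in T-gated ones. Myeloid cells are known to make both apolipoproteins and transferrin; their own transcription and stray RNA were not told apart cell by cell.

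Igf2 and Apob stood apart in a different way, being raised in every class. Igf2 in leukocytes was at 9.97% of its keratin-cell level in DMSO and 6.88% in STK, with 55.9 and 50.8 CPM in T-gated, 57.4 and 32.2 in monocyte-gated and 45.9 and 30.6 in macrophage-gated cells. Apob was at 6.13% and 4.51%, with 15.2 and 11.1 CPM in T-gated and 16.2 and 5.42 in monocyte-gated cells. Neither followed a class as Trf did. H19, the neighbour of Igf2, was at 2.97% and 2.33%, and Hnf4a at 4.34% and 2.35% on 121 and 83 UMIs.

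**Figure D4:**
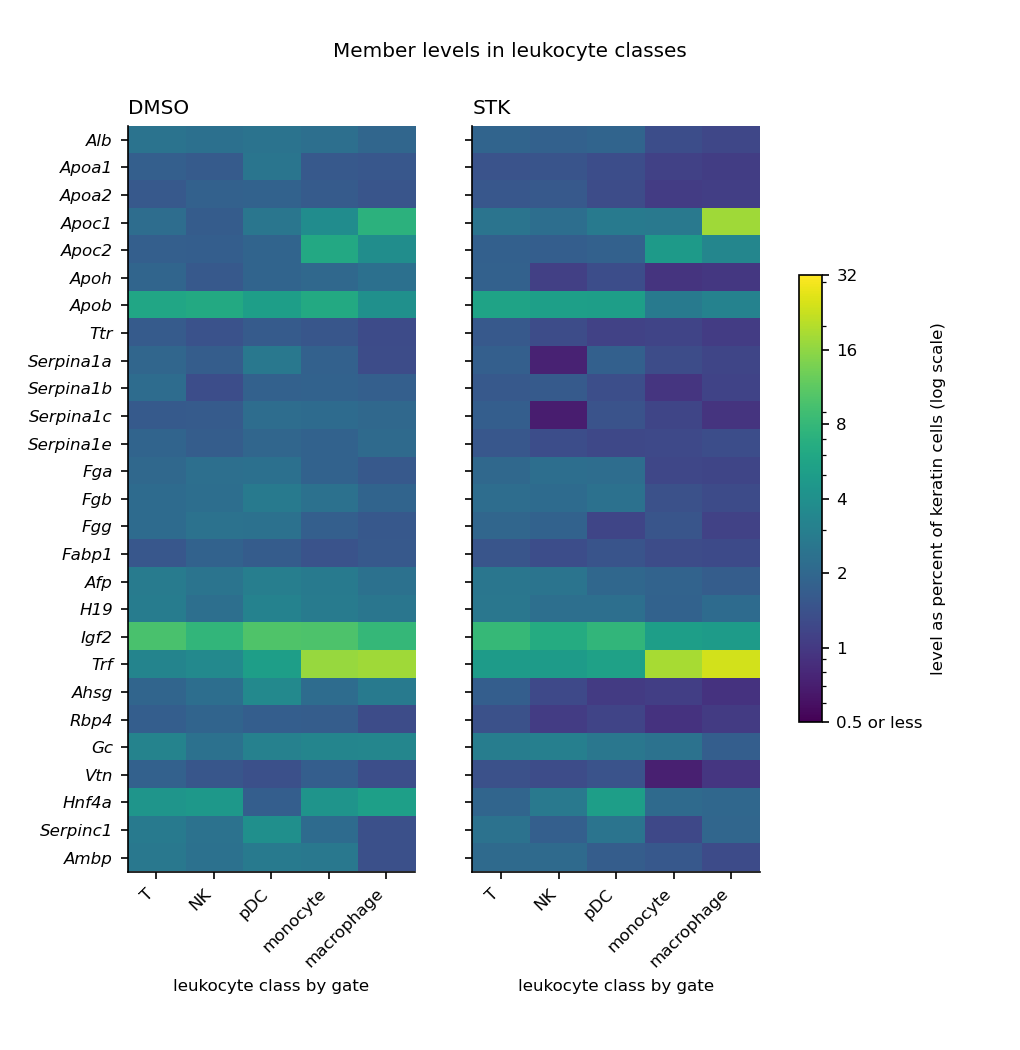
Level of each of the 27 members with at least 50 UMIs in the leukocytes of both libraries, as a percent of its level in keratin cells of the same library (logarithmic colour scale), in 5 leukocyte classes set by marker gates. Most squares lie near the medians of 2.12% and 1.81%; Trf and Apoc1 brighten in macrophage-gated cells, Apoc2 in monocyte-gated cells, and Igf2 and Apob across all classes.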

How the data were processed

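The authors deposited matrices of UMI counts that were not normalized, written by Cell Ranger 6.0.2 per the file headers, with GRCm38 (mm10) per the submitters' processing notes. The annotation release used for counting is not given in the sources used here. The members and lists were chosen with earlier results of these data known. UMI counts were summed per library over each set of cells and divided by all UMIs of those cells (CPM), with Python 3.11.15, NumPy 2.4.6 and SciPy 1.17.1. With 1 library per group there was no test: CPM have exact Poisson, shares exact Clopper-Pearson and ratios exact conditional binomial 95% intervals, which cover counting error only; a share of 0 has the limit that 3 counts allow. A member was measured with at least 50 UMIs in the library where it was higher, and called at 1.5 times. Genes named were members at 1.5 times or beyond, gate and fetal genes, members apart in leukocytes, and of each list those furthest from equal at 50 CPM or more. Doublets were called by Scrublet (scanpy 1.11.5) at an expected 8.0% and a score threshold of 0.25, set after the automatic threshold called 0 STK cells; 396 and 425 were called, 5 and 2 of them keratin cells, and they were left in except in the alternative without them. The monocyte gate was read only in cells meeting no other gate, also set afterwards: as first written, 28.1% and 35.0% of keratin-free leukocytes met several gates. Leukocyte levels were set against keratin cells because the 5% gate held so few. Ratios and intervals were tested on simulated Poisson counts, which leave out any uneven spread of UMIs over cells. Promoter sequences are from RefSeq, and matches were sought on both strands. The result for 1 gene of the urea cycle and amino acid list is not reported here.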

Additional observations from a re-analysis of the deposited data

Results flagged for a closer look

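Ttr, Serpina1e and Afp differed between the libraries in opposite directions in female and in male keratin cells, each by at least 1.5 times. The ratio of STK to DMSO was 1.83 in female and 0.632 in male cells for Ttr, 1.92 and 0.610 for Serpina1e, and 1.80 and 0.625 for Afp. The difference between the sexes was not tested, since each sex has 1 library per group. The male values rest on 56 STK cells, and 9 of the 28 members measured in both sexes lay on opposite sides of equal.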

How the results depend on the processing

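No paired analysis was possible because each group has 1 library. The share of hepatocyte or tumour cells, 0.935 times as high with STK in the 5% gate, stayed inside its counting interval in all 10 alternatives that gave a value. With 11 DMSO and 10 STK cells that interval is wide, so staying inside it says little about how stable the share is. Keratin cells, which were far more numerous, made up 8.89% of kept cells in DMSO and 6.49% in STK. No value came from a 10% gate, or from female or male cells alone in the 5% gate, as fewer than 5 cells per library were left. The count of members past 1.5 times, 1 in the 5% gate, was 4 with the mean of per-cell CPM, 4 without a UMI minimum and 4 with a gate of 0.5%. With the keratin gate it was 3, also without doublets and without member UMIs in the total, 2 without shared barcodes, 15 in female and 13 in male cells. The members' median log2 ratio, 0.06 in the 5% gate, was -0.15 in female and -0.53 in male keratin cells and -0.046 with the mean of per-cell CPM there. The ratio of member UMIs in leukocytes, 1.08, was 1.03 without doublets. It turned to 0.722 in female and 0.828 in male cells, 0.774 without the Ptprc requirement, 0.868 with a limit of 5%, and 0.846 as the median over cells. Without keratin it was 0.846, with 0.709 in female and 0.918 in male cells, 0.826 as the median over cells, 0.850 without doublets and 0.844 without shared barcodes. The cause was not tested. The alternatives with keratin, the 0.5% gate and shared barcodes were chosen after seeing the data. Depth limits Gpc3, Itih4, Mup3 and Mup20.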

Other observations

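Some keratin cells held a low share of member UMIs. Under a limit of 0.5% of UMIs from the 33 members, chosen after seeing the data, there were 87 DMSO cells (8.78%) and 54 STK cells (7.67%). They were not shallow, with medians of 19820 and 24408 UMIs. Their median keratin level (Krt8 and Krt18) was 2241 CPM in DMSO and 1621 in STK, against 798 and 1242 in the other keratin cells. Their median mitochondrial share was 0.428% and 0.518%, against 1.17% and 1.16%. Whether they are another kind of cell was not tested. Cdkn1a, a cell-cycle inhibitor, had 1434 CPM in these DMSO cells and 267 in the other DMSO keratin cells, and 1580 and 423 in STK. The stress genes Atf4 (709 and 123 CPM in DMSO, 750 and 224 in STK) and Trib3 (171 and 8.96, 201 and 16.0) were also higher in them, as was Phlda3 (323 and 23.0, 274 and 28.8), a p53 target. The non-coding host RNAs Gas5 (3730 and 796, 4253 and 918) and Snhg1 (2982 and 430, 4077 and 690) followed, and Lgals3, galectin-3, had 544 and 19.2 CPM in DMSO and 513 and 22.8 in STK. Hnf4a was lower, at 11.1 and 78.4 CPM in DMSO and 5.55 and 83.9 in STK; as a member it had a part in the choice of cells. These genes were named after their values were seen.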
